A study of Homo sapiens with 9 samples.

Results

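The genes of ferritin and cellular iron handling were described in FIBP-depleted lung cancer cells. They were FTH1, FTL, TFRC, SLC40A1, IREB2, ACO1, NCOA4 and FBXL5, chosen by gene symbol, and they made up 8 of the 60966 genes in the RNA-seq tables. The level of a gene was the sum of the FPKM (fragments per kilobase of transcript, scaled to the mapped fragments of the library) of all its transcripts. FPKM is a level per length, so the levels of different genes can be set side by side. All 8 genes reached 1 FPKM in at least 3 of the 9 samples, the filter that 14985 genes passed. SLC40A1 passed it only through the 3 samples in which it was highest, so the counts below are also given without it.

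H1299 is a human cell line of non-small cell lung cancer. Its cells were transfected with a scrambled control siRNA (Scramble) or with either of 2 siRNAs against FIBP, the gene of FGF1 intracellular binding protein (Si-FIBP#1 and Si-FIBP#2). Total RNA was taken 48 h later from 3 samples per group, described in the series as independent. The study's methods give 100 nM for siRNA transfection, and all groups, controls included, were transfected.

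The targeted gene FIBP (ENSG00000172500) had 88.4, 79.5 and 77.7 FPKM in Scramble, 7.49, 7.77 and 4.30 FPKM after Si-FIBP#1 and 7.13, 5.92 and 8.21 FPKM after Si-FIBP#2. The means of the depleted groups were 7.96% and 8.66% of the Scramble mean, so the labels matched the knockdown in every sample. The depth of the libraries, estimated from the step in FPKM that 1 fragment is worth, was 20000000 to 23800000 fragments. The summed level of KRT8, KRT18 and VIM, markers expressed in lung cancer lines of this kind, was 3726 to 3954 FPKM in the Scramble samples, 2433 to 2757 after Si-FIBP#1 and 1803 to 2502 after Si-FIBP#2. Most of the sum was VIM, with means of 3232, 2307 and 1988 FPKM in Scramble, Si-FIBP#1 and Si-FIBP#2. In the same order, KRT18 had means of 476, 209 and 175 FPKM and KRT8 of 107, 73.4 and 75.9. All 3 markers passed the filter, and the part of this shift in the results below was not tested. Among cells known for handling much iron, 1 of 5 erythroid markers passed (EPOR), and their sum was 11.02 to 13.4 FPKM in Scramble, 9.99 to 11.8 after Si-FIBP#1 and 9.35 to 11.6 after Si-FIBP#2. Of 3 hepatocyte markers SERPINA1 passed, and the sums were 8.73 to 11.03, 4.20 to 6.79 and 5.90 to 7.93 FPKM. None of 4 macrophage markers passed, and their sum was at most 0.62 FPKM. In RNA from bulk cells, fewer cells of a kind and less RNA per cell cannot be told apart.

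Cells take up iron bound to transferrin through the transferrin receptor, encoded by TFRC, store it inside the hollow shell of ferritin, built from heavy (FTH1) and light (FTL) chains, and release it through ferroportin (SLC40A1). NCOA4 is the receptor that carries ferritin to the lysosome, where its iron is set free. The iron regulatory proteins IRP1 (ACO1) and IRP2 (IREB2) bind a hairpin in certain mRNAs, the iron-responsive element, when iron is scarce. Bound near the 5′ end, as in ferritin and ferroportin mRNA, they block translation, and bound in the 3′ UTR of TFRC they keep the mRNA from decay. FBXL5 senses iron and marks the iron regulatory proteins for degradation. Protein levels and translation were not measured in these tables.

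Of the 8 genes, 4 have transcripts with the letters of an iron-responsive element. The pattern searched was a C, any 5 bases, the loop CAGTG, 1 base other than G, and 5 bases able to pair with the first 5, G with T included. It was read on the sense strand of the transcripts of GENCODE release 29 (GRCh38), whose lengths differ from the deposited ones for part of the transcripts. The windows below hold 30 bases each, 5′ to 3′, with the loop in capitals, and are shown because the mRNAs of storage and export hold them before the coding sequence and that of uptake after it.
FTH1: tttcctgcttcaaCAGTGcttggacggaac
FTL: tctcttgcttcaaCAGTGtttggacggaac
SLC40A1: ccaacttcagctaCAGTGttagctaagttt
TFRC element 1: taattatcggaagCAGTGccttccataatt
TFRC element 2: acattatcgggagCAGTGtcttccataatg
TFRC element 3: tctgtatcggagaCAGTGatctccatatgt
TFRC element 4: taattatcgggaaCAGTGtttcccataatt

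The FTH1 window lies at chr11:61967574-61967603 on the minus strand, in the 5′ UTR of exon 1 of 4 (ENST00000273550). The FTL window lies at chr19:48965334-48965363 on the plus strand, also in the 5′ UTR of exon 1 of 4 (ENST00000331825), and 27 of its 30 bases are those of FTH1. The SLC40A1 window is at chr2:189580661-189580690 on the minus strand, in the 5′ UTR of exon 1 of 8 (ENST00000261024). The 4 windows of TFRC lie on the minus strand in the 3′ UTR, in exon 19 of 19 (ENST00000360110), at chr3:196050979-196051008, chr3:196050575-196050604, chr3:196050510-196050539 and chr3:196050463-196050492. Over all genes, 26 of 19050 (0.137%) hold the pattern in the 5′ UTR of any coding transcript, and 104 of 19151 (0.543%) in the 3′ UTR. A different share used only the longest UTR of each gene, among those within 20% of the length of the named gene's longest. It was 0.155% for FTH1, 0.0738% for FTL, 0.153% for SLC40A1 and 0.561% for TFRC. The longest 5′ UTR of FTH1, 392 nt, is not that of the mRNA shown, where coding starts at base 236. The letters are in 10 of the 12 transcripts of FTH1, the 1 of FTL, 3 of 7 of SLC40A1 and 3 of 15 of TFRC. No transcript of IREB2, ACO1, NCOA4 or FBXL5 holds them. Of the genes in the lists of iron metabolism described further on, ALAS2 holds the pattern in the 5′ UTR and CDC14A and TF in the 3′ UTR. A match describes these letters and was not measured as a bound site. Elements that depart from this pattern were not searched, so the matches are not a full list of elements in these mRNAs.

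**Figure D1:**
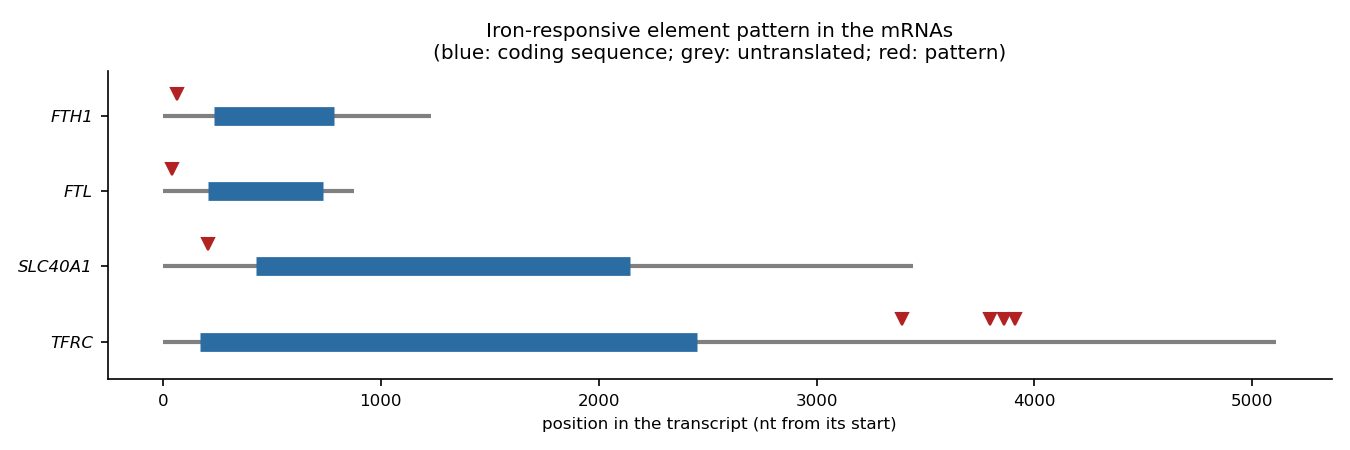
Each line is the main mRNA of a gene (GENCODE release 29), drawn to scale along the horizontal axis in nucleotides from its start, with the coding sequence in blue, untranslated sequence in grey and a red mark at each match to the iron-responsive element pattern. FTH1, FTL and SLC40A1 have 1 match each before the coding sequence, and TFRC has 4 matches after it.

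The ferritin chains had the most abundant mRNAs of the 8 genes. The heavy chain fell after Si-FIBP#1, whereas the light chain did not pass the test. FTH1 (ENSG00000167996, chr11:61959718-61967660, minus strand) ranked 353rd among all genes by its mean in the Scramble samples. It was at 264, 293 and 268 FPKM in Scramble, 208, 217 and 205 after Si-FIBP#1, and 296, 265 and 288 after Si-FIBP#2. Every Si-FIBP#1 sample was below every Scramble sample, whereas the Si-FIBP#2 samples overlapped Scramble. FTH1 fell by 0.39 on the log2 scale after Si-FIBP#1 (SE 0.057, adjusted p = 0.00044) and was 0.04 from Scramble after Si-FIBP#2 (95% confidence interval -0.09 to 0.17, adjusted p = 0.58), a difference that turned to -0.06 (adjusted p = 0.50) when samples were scaled by their median ratio. All log2 fold changes are of FPKM + 1, which understates the change of genes near 1 FPKM, and adjusted p-values come from limma over all 14985 genes (Benjamini-Hochberg). A gene was called, or is said to have risen or fallen, where this value was below 0.05.

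FTL (ENSG00000087086, chr19:48965301-48966878, plus strand), at rank 152, was at 779, 760.0 and 751 FPKM in Scramble, 776, 769 and 735 after Si-FIBP#1, and 895, 725 and 860 after Si-FIBP#2. The groups overlapped, and Si-FIBP#2 replicate 2 was the lowest of the 9 samples while the others of its group were the highest. The log2 difference from Scramble was -0.01 (95% confidence interval -0.16 to 0.15, adjusted p = 0.95) after Si-FIBP#1 and 0.11 (-0.05 to 0.27, adjusted p = 0.22) after Si-FIBP#2. Without Si-FIBP#2 replicate 2 the latter was 0.20 (adjusted p = 0.0026), so for FTL this library decides the call. The ratio of FTL to FTH1 was 2.78 ± 0.18 in Scramble, 3.62 ± 0.09 after Si-FIBP#1 and 2.92 ± 0.16 after Si-FIBP#2 (SD, n = 3). It was higher in each Si-FIBP#1 sample than in any other sample, and this ratio was not tested.

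The uptake gene fell slightly after Si-FIBP#1, and the export gene was low in all samples. TFRC (ENSG00000072274, chr3:196027183-196082189, minus strand), the transferrin receptor, was at 151, 152 and 154 FPKM in Scramble, 122, 122 and 144 after Si-FIBP#1, and 127, 157 and 134 after Si-FIBP#2. All Si-FIBP#1 samples were below Scramble, while replicate 2 of Si-FIBP#2 was above it. TFRC fell by 0.24 after Si-FIBP#1 (SE 0.086, adjusted p = 0.041), a call lost in 6 of the 9 fits that left out 1 sample (adjusted p = 0.052 to 0.13) and without the filter on low values (adjusted p = 0.10). After Si-FIBP#2 the difference was -0.14 (95% confidence interval -0.33 to 0.06, adjusted p = 0.21). It was -0.23 (adjusted p = 0.030) without Si-FIBP#2 replicate 2 and -0.23 (adjusted p = 0.039) under median ratio scaling. The ratio of TFRC to FTH1 was 0.556 ± 0.031 in Scramble, 0.617 ± 0.075 after Si-FIBP#1 and 0.496 ± 0.087 after Si-FIBP#2, with overlapping samples.

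SLC40A1 (ENSG00000138449, chr2:189560579-189583758, minus strand), the iron exporter ferroportin, was near the floor of detection. It was at 0.50, 0.51 and 0.66 FPKM in Scramble, 0.71, 0.93 and 0.93 after Si-FIBP#1, and 1.35, 1.83 and 1.29 after Si-FIBP#2. These values correspond to about 33 to 42, 52 to 66 and 80 to 122 fragments per library by the depth estimate. The 3 groups did not overlap, in the order Scramble, Si-FIBP#1, Si-FIBP#2. The log2 difference from Scramble was 0.67 after Si-FIBP#2, where the ratio of the mean FPKM was 2.68, and 0.25 after Si-FIBP#1, and between the siRNAs it was 0.42. Because the gene passed the filter only through its 3 high samples, these values are a description of a low gene.

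Both iron regulatory proteins rose at the mRNA level with both siRNAs. IREB2 (ENSG00000136381, chr15:78437431-78501456, plus strand), which encodes IRP2, was at 12.2, 11.4 and 11.2 FPKM in Scramble, 13.0, 14.1 and 16.0 after Si-FIBP#1, and 19.8, 21.0 and 20.2 after Si-FIBP#2. The 3 groups did not overlap. IREB2 rose by 0.28 after Si-FIBP#1 (SE 0.080, adjusted p = 0.015) and by 0.76 after Si-FIBP#2 (SE 0.080, adjusted p = 5.6e-05). The first of these calls was lost without Scramble replicate 3 (0.26, adjusted p = 0.052). ACO1 (ENSG00000122729, chr9:32384603-32454769, plus strand), which encodes IRP1, the cytosolic aconitase when it carries an iron-sulfur cluster, was at 15.2, 13.9 and 13.8 FPKM in Scramble, 19.4, 21.1 and 19.1 after Si-FIBP#1, and 18.2, 20.4 and 19.0 after Si-FIBP#2. The depleted samples all lay above Scramble and overlapped each other. ACO1 rose by 0.45 (SE 0.071, adjusted p = 0.00065) and by 0.40 (SE 0.071, adjusted p = 0.0013). The ratio of IREB2 to ACO1 was 0.812 ± 0.007 in Scramble, 0.725 ± 0.097 after Si-FIBP#1 and 1.06 ± 0.03 after Si-FIBP#2, and only the Si-FIBP#2 samples stood clear of Scramble, at 1.03 to 1.09.

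The ferritin receptor and the iron sensor were higher after Si-FIBP#1 than in either other group. NCOA4 (ENSG00000266412, chr10:46005088-46030714, minus strand) was at 43.2, 45.3 and 41.7 FPKM in Scramble, 65.9, 65.5 and 67.9 after Si-FIBP#1, and 52.0, 50.6 and 49.6 after Si-FIBP#2. The 3 groups did not overlap, and the SD within each was at most 1.81 FPKM. NCOA4 rose by 0.60 after Si-FIBP#1 (SE 0.049, adjusted p = 1.1e-05), to 1.53 times the Scramble mean. After Si-FIBP#2 it rose by 0.22 (SE 0.049, adjusted p = 0.0046), a call lost under median ratio scaling (0.13, adjusted p = 0.063). FBXL5 (ENSG00000118564, chr4:15604539-15681679, minus strand) was at 36.1, 40.2 and 38.4 FPKM in Scramble, 50.7, 47.5 and 46.1 after Si-FIBP#1, and 39.9, 34.5 and 39.2 after Si-FIBP#2. It rose by 0.32 after Si-FIBP#1 (SE 0.071, adjusted p = 0.0043), where all samples were above Scramble, and was -0.02 from Scramble after Si-FIBP#2 (95% confidence interval -0.17 to 0.14, adjusted p = 0.88), where the samples overlapped. With annotated transcripts only, FBXL5 rose after Si-FIBP#2 (0.43, adjusted p = 0.0073).

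**Figure D2:**
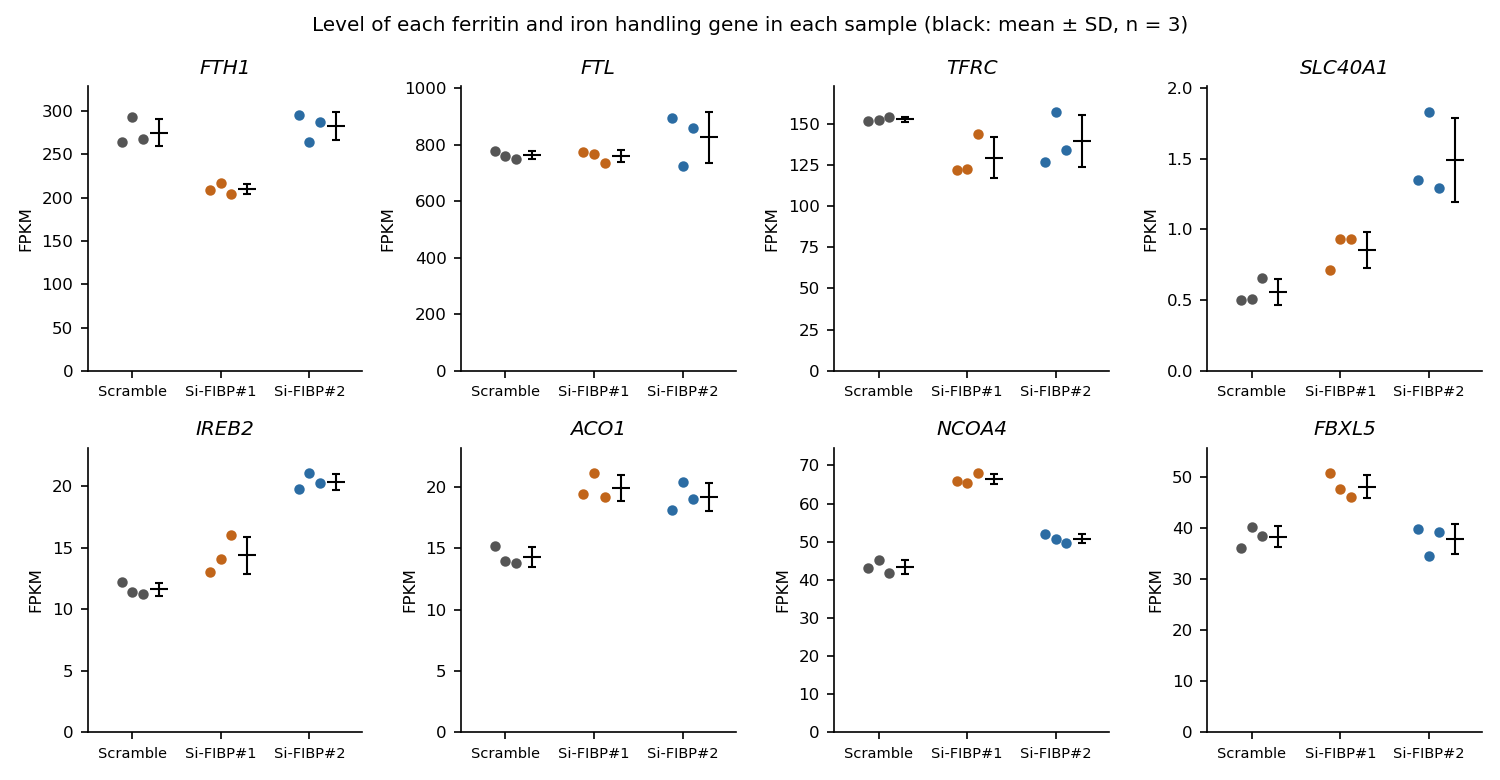
FPKM of each gene (vertical axes, each from 0) in the 3 samples per group (coloured points), with the mean and SD of each group in black. FTH1 is lowest in the Si-FIBP#1 samples (205 to 217 FPKM), NCOA4 and FBXL5 are highest there, and IREB2 and SLC40A1 are highest in the Si-FIBP#2 samples.

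Counted together, 6 of the 8 genes, or 6 of 7 without SLC40A1, changed after Si-FIBP#1, beside 47.7% of all tested genes called in that comparison. Of these, 4 were higher (27.8% of all genes) and 2 lower (19.9%). After Si-FIBP#2, 4 of the 8 were called, or 3 of 7 without SLC40A1, beside 48.8% of all genes. All 4, or 3 without SLC40A1, were higher, beside 31.1% of all genes. The share of members called after Si-FIBP#2 was thus near the share of all genes, and on the scale of FPKM + 1 no gene of the 8 reached the fold change above 2 that the study required for differential expression, which 5.66% and 5.05% of all genes did. The median log2 change of the 7 genes at 1 FPKM or more in every sample was 0.28 after Si-FIBP#1 and 0.11 after Si-FIBP#2, where the medians of all tested genes were 0.07 and 0.11. Of the calls over all genes, 58.4% and 63.7% were higher, and under median ratio scaling 51.4% and 51.0%. Both comparisons share the Scramble samples.

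The siRNAs were compared with each other directly. Of the 8 genes, 4, or 4 of 7 without SLC40A1, differed between Si-FIBP#2 and Si-FIBP#1, beside 15.4% of all genes called, 9.58% higher and 5.8% lower. FTH1 and IREB2 were higher after Si-FIBP#2, by 0.43 (SE 0.057, adjusted p = 0.0017) and 0.48 (SE 0.080, adjusted p = 0.0048). NCOA4 and FBXL5 were lower after Si-FIBP#2, by a log2 difference of -0.38 (SE 0.049, adjusted p = 0.0015) and -0.34 (SE 0.071, adjusted p = 0.012). In each of these 4 genes, called from the same samples, the samples of the siRNAs did not overlap. Nor did they overlap in SLC40A1, which was not called here. The share of all genes without overlap was not computed, so nothing is read from this. Of all calls in this comparison 62.3% were higher after Si-FIBP#2, which became 48.8% under median ratio and 74.8% under TPM scaling, and the 4 calls held under both. That of FBXL5 was lost with annotated transcripts only (-0.29, adjusted p = 0.094). For ACO1 the difference was -0.05 (95% confidence interval -0.21 to 0.11), for FTL 0.12 (-0.04 to 0.27) and for TFRC 0.11 (-0.09 to 0.30). Without Si-FIBP#2 replicate 2 that of FTL was 0.21 (adjusted p = 0.0066). FIBP differed by 0.13 (95% confidence interval -0.28 to 0.54, adjusted p = 0.69), and by -0.10 to 0.26 with samples left out. Doses were the same in the study's methods, and what part the remaining FIBP or other differences between the siRNAs have in these values was not tested.

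**Figure D3:**
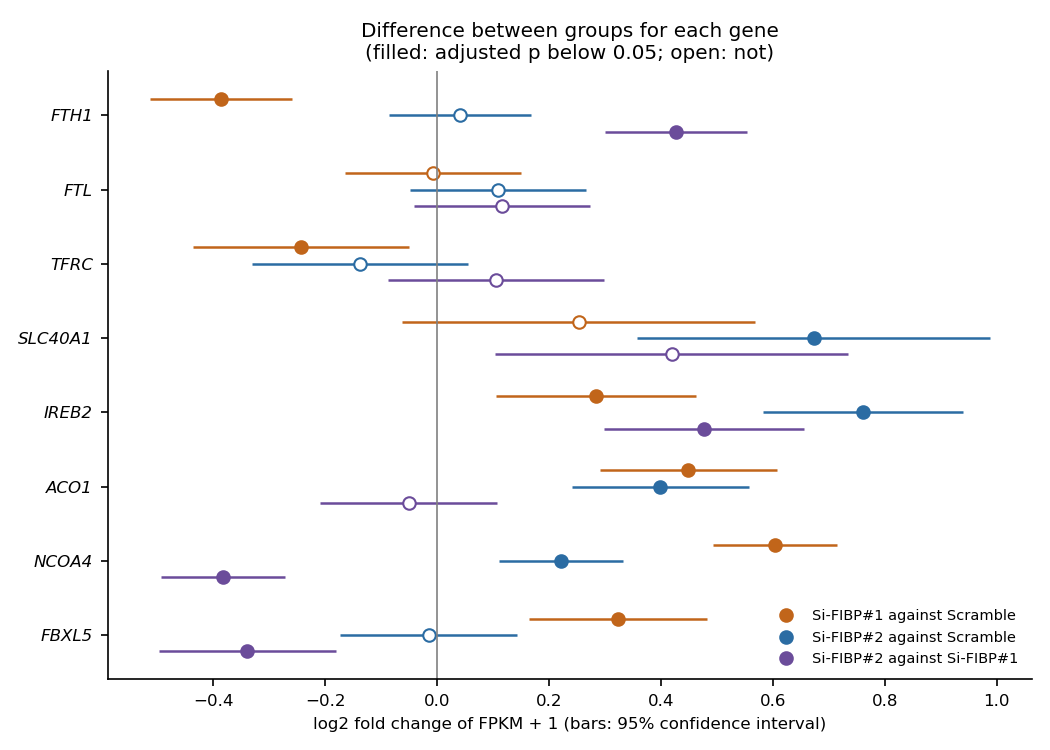
log2 fold change of FPKM + 1 (horizontal axis) for each gene in the 3 comparisons, with bars for the 95% confidence interval from limma and filled points where the adjusted p was below 0.05. ACO1, IREB2 and NCOA4 lie above 0 with both siRNAs, and the direct comparison is filled for FTH1, IREB2, NCOA4 and FBXL5.

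The sums hide different transcripts. The tables hold 74 transcripts of the 8 genes, of which 29 passed the filter, and all tested transcripts of the series number 47662. After Si-FIBP#1, 5 of the 29 were higher and 2 lower, beside 20.7% of all transcripts called, and after Si-FIBP#2 again 5 were higher and 2 lower, beside 19.1%. Both counts include ENST00000530019 of FTH1, which passed the filter only through Scramble, and ENST00000541043 of ACO1, which passed only through depleted samples. The count after Si-FIBP#2 also includes ENST00000261024 of SLC40A1, which reached 1 FPKM only there, so these calls are a description and nothing is read from the counts. Between the siRNAs 2 were higher after Si-FIBP#2, the main transcripts of FTH1 and IREB2, beside 2.46%. How reads are split between transcripts of a gene is itself an estimate by the quantifier, so these levels are less certain than the sums.

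The main FTH1 transcript (ENST00000273550, 1203 nt) gave 91.5% of the gene's FPKM. It was at 242, 246 and 234 FPKM in Scramble, 198, 210.4 and 179 after Si-FIBP#1, and 269, 256 and 272 after Si-FIBP#2. It fell by 0.30 after Si-FIBP#1 (SE 0.060, adjusted p = 0.0091), and after Si-FIBP#2 all samples were above Scramble by a difference that did not pass (0.14, adjusted p = 0.14). A shorter FTH1 transcript of 550 nt (ENST00000530019) was at 12.1, 40.1 and 25.6 FPKM in Scramble and was listed at 0 in all 6 depleted samples. It passed the filter only through Scramble, so its values are a description. In release 29 it shares 1 of its 3 exons exactly with the main transcript and ends in an exon of 83 bases, chr11:61959822-61959904, 4380 bases beyond the end of the main transcript. Without this transcript, an alternative chosen after its values were seen, FTH1 fell by 0.24 after Si-FIBP#1 (adjusted p = 0.0030) and was 0.18 higher after Si-FIBP#2 (adjusted p = 0.013), so the level of FTH1 after Si-FIBP#2 against Scramble rests on whether it is counted. Another transcript, of 825 nt (ENST00000620041), was at 1.29 to 3.32 FPKM in Scramble and at 3.82 to 20.9 in the depleted samples, and did not pass with either siRNA (adjusted p = 0.075 and 0.061).

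For ACO1, the transcript of 3601 nt (ENST00000379923) gave 82.9% of the level and rose after Si-FIBP#1 (0.36, adjusted p = 0.032), whereas after Si-FIBP#2 the difference was 0.27 (adjusted p = 0.092). The transcript of 3618 nt (ENST00000541043) was listed at 0 in all 3 Scramble samples. It was at 0.70, 0.81 and 1.60 FPKM after Si-FIBP#1 and 2.18, 1.09 and 1.99 after Si-FIBP#2. This transcript passed the filter only through depleted samples, so its values are a description. For IREB2, the transcript of 6324 nt (ENST00000258886) gave 90.8% of the level and rose by 0.75 after Si-FIBP#2 (adjusted p = 0.00084), while its difference after Si-FIBP#1 was 0.28 (adjusted p = 0.056). The main TFRC transcript (ENST00000360110), which holds the 4 matches to the pattern shown above, was at -0.23 after Si-FIBP#1 (adjusted p = 0.14) and -0.11 after Si-FIBP#2 (adjusted p = 0.48).

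NCOA4 and FBXL5 were the only genes of the 8 with transcripts that the authors' assembly added to the annotation. Such transcripts made up 63.1% of NCOA4 in Scramble, 46.8% after Si-FIBP#1 and 48.5% after Si-FIBP#2, and 57.4%, 42.7% and 41.0% of FBXL5. The assembled NCOA4 transcript MSTRG.2996.1 (4126 nt) was at 27.7, 25.2 and 25.8 FPKM in Scramble, 28.0, 24.3 and 31.2 after Si-FIBP#1, and 20.6, 24.4 and 19.3 after Si-FIBP#2, and did not pass with either siRNA (adjusted p = 0.66 and 0.11). The annotated NCOA4 transcript of 3549 nt (ENST00000581486) was at 3.79, 8.09 and 2.96 FPKM in Scramble, 16.9, 19.2 and 15.8 after Si-FIBP#1, and 12.3, 6.51 and 13.4 after Si-FIBP#2. It rose by 1.71 after Si-FIBP#1 (SE 0.33, adjusted p = 0.0076), and its difference after Si-FIBP#2 was 1.02 (adjusted p = 0.063). That of 3489 nt (ENST00000585132) rose with both, by 0.67 (adjusted p = 0.0039) and 0.43 (adjusted p = 0.027).

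Of the annotated FBXL5 transcripts, only that of 3488 nt passed the test after either siRNA. This transcript (ENST00000341285) was at 9.49, 8.60 and 8.81 FPKM in Scramble, 18.6, 15.7 and 17.7 after Si-FIBP#1, and 18.1, 13.1 and 15.1 after Si-FIBP#2. It rose with both siRNAs, by 0.88 (SE 0.12, adjusted p = 0.0014) and 0.71 (SE 0.12, adjusted p = 0.0040), and did not overlap Scramble in either. The assembled MSTRG.19882.4 (3662 nt) was at 13.8, 14.6 and 16.7 FPKM in Scramble, 13.9, 16.2 and 13.6 after Si-FIBP#1, and 10.3, 11.5 and 11.7 after Si-FIBP#2, where it fell by 0.39 (adjusted p = 0.027). With annotated transcripts alone, the rise of FBXL5 after Si-FIBP#2 given above was found, and NCOA4 rose by 1.10 after Si-FIBP#1 and 0.67 after Si-FIBP#2 (adjusted p = 4.3e-05 and 0.00087).

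**Figure D4:**
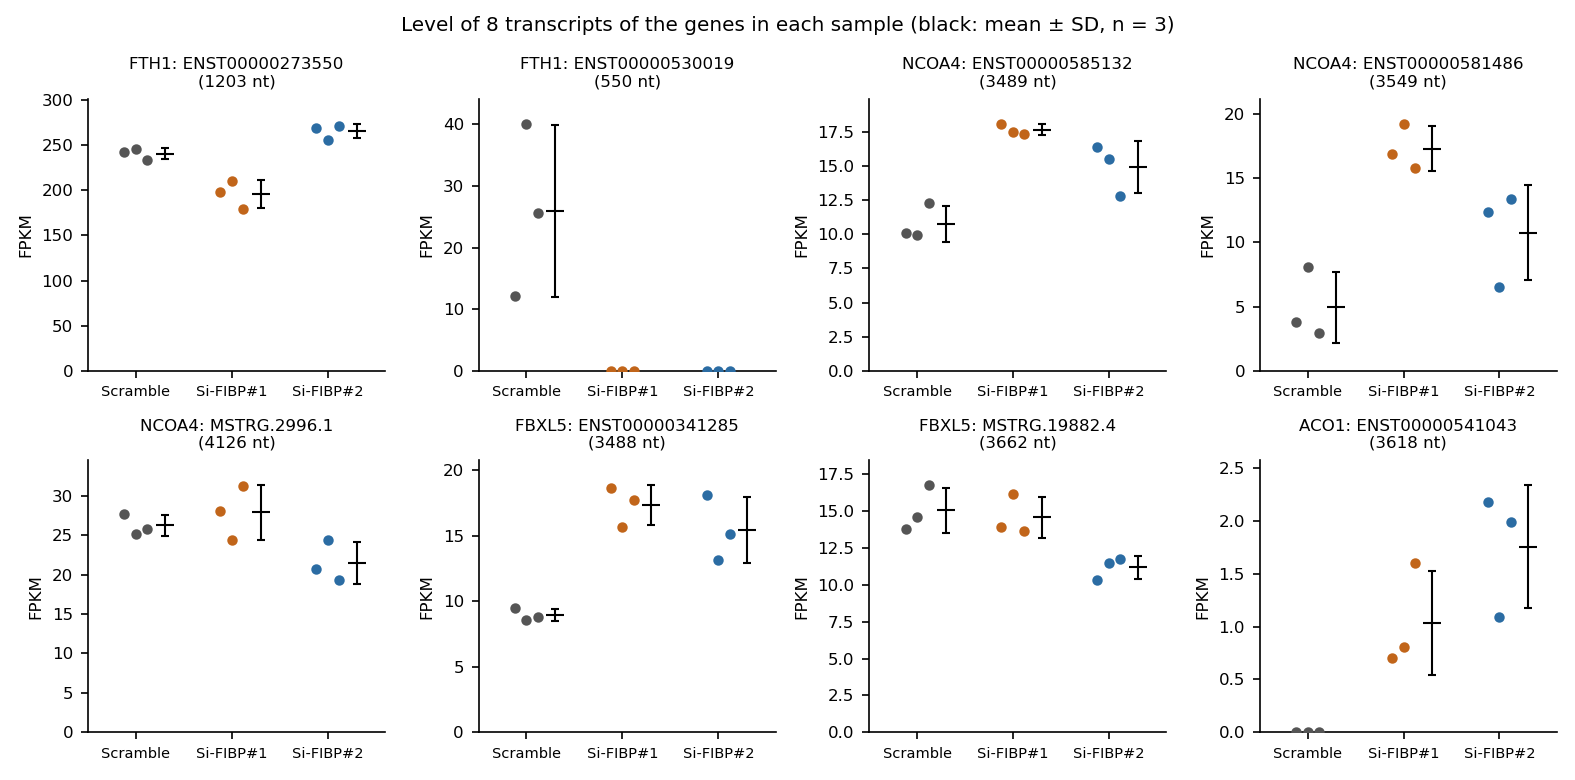
FPKM of 8 transcripts of FTH1, NCOA4, FBXL5 and ACO1 (vertical axes, each from 0) in the 3 samples per group, with the mean and SD in black where a group is above 0. The 550 nt FTH1 transcript is listed at 0 in the 6 depleted samples, the 3618 nt ACO1 transcript at 0 in the 3 Scramble samples, and the annotated FBXL5 transcript of 3488 nt is higher in all depleted samples.

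Reads of ferritin could also belong to its processed pseudogenes. The tables hold 24 pseudogenes of FTH1, 12 of them above 0 in a sample, and 16 of FTL, 3 of them above 0. Their summed level was at most 2.52 FPKM for FTH1, or 0.861% of the gene in the same sample, and at most 3.44 FPKM for FTL, or 0.447%. FTLP12, the most abundant, was at 1.37, 1.10 and 1.19 FPKM in Scramble, 3.34, 3.44 and 3.12 after Si-FIBP#1, and 2.08, 2.54 and 3.27 after Si-FIBP#2. FTLP12 passed the test with both siRNAs (0.95, adjusted p = 0.00032, and 0.70, adjusted p = 0.0019), but reads of near-identical copies are split by the quantifier and its level is uncertain. FTH1P16 was at 0 to 1.28 FPKM and FTH1P1 at 0 to 1.04. Exons of FTH1 share 1267 bases with BEST1 on the opposite strand, which was at most 0.15 FPKM, and those of FBXL5 share 18 bases with FAM200B (mean 70.1 FPKM). The library kit is not stated to keep strand, so reads in these bases cannot be assigned to a strand.

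Profiles over the 9 samples, each centred on its own mean in log2(FPKM + 1), were compared with those of all other tested genes by the root mean square difference. For FTH1 the nearest were KCNK6 (0.053) and CYSTM1 (0.061), where the root mean square of FTH1 itself around its mean was 0.20. For ACO1 they were WIPI2 (0.026) and BET1L (0.031), against 0.21, and for IREB2 ATP6V1B2 (0.042) and TMTC2 (0.049), against 0.32. For NCOA4 they were HERPUD2 (0.061) and TP53INP1 (0.064), against 0.25. The nearest to TFRC were ETF1 (0.041) and P2RY1 (0.054), to FBXL5 RPS18 (0.051) and SUGCT (0.061), and to SLC40A1 STOX1 (0.068) and NAPG (0.071). These likenesses were chosen from all tested genes and are a description.

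The rest of iron metabolism was read from 8 lists with 86 genes, of which 70 were tested. After Si-FIBP#1, 19 of the 70 were higher and 13 lower (45.7%, beside 47.7% of all genes), and after Si-FIBP#2, 18 were higher and 13 lower (44.3%, beside 48.8%). Between the siRNAs 5 were higher and 5 lower (14.3%, beside 15.4%). The median log2 change was 0.06 after Si-FIBP#1 and 0.07 after Si-FIBP#2, close to those of all genes (0.07 and 0.11). The lists as a whole thus changed about as often as other genes. The counts per list below stand beside 27.8% higher and 19.9% lower of all genes after Si-FIBP#1. After Si-FIBP#2 these shares were 31.1% and 17.7%. The lists are short, and nothing is read from their counts. BMP6, ERFE and CUBN, described below, are included in the counts although they passed the filter mainly through groups in which they were high.

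In heme synthesis, UROS, the gene of uroporphyrinogen III synthase, rose after both siRNAs. It was at 33.6 ± 2.2 FPKM in Scramble, 70.4 ± 1.8 after Si-FIBP#1 and 66.2 ± 0.9 after Si-FIBP#2 (SD, n = 3), and rose by 1.05 (adjusted p = 1.0e-06) and 0.96 (adjusted p = 2.1e-06). UROD, the next enzyme and the most abundant of the list, was at 107 ± 3.2 FPKM in Scramble, 89.5 ± 5.5 after Si-FIBP#1 and 113 ± 5.9 after Si-FIBP#2, and fell by 0.25 after Si-FIBP#1 (adjusted p = 0.0060). Its difference after Si-FIBP#2 was 0.08 (adjusted p = 0.30), and it differed between the siRNAs by 0.33 (adjusted p = 0.0064). Of 8 tested genes of the list, 3 were higher and 2 lower after Si-FIBP#1 and 3 were higher and 1 lower after Si-FIBP#2. In heme transport and breakdown, 3 of 7 were higher after Si-FIBP#1 and 2 after Si-FIBP#2, and none was lower. BLVRB, a biliverdin reductase and the most abundant of that list, rose from 139.7 ± 1.9 FPKM to 181 ± 6.0 and 192 ± 8.4, by 0.37 (adjusted p = 0.00017) and 0.46 (adjusted p = 4.7e-05). HMOX1, the inducible heme oxygenase that releases iron from heme, was named after its values were seen. It was at 14.1 ± 0.7 FPKM in Scramble, 24.3 ± 0.6 after Si-FIBP#1 and 15.4 ± 2.4 after Si-FIBP#2, and rose by 0.75 after Si-FIBP#1 (adjusted p = 0.00018). Its difference after Si-FIBP#2 was 0.11 (adjusted p = 0.36).

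Of the 8 genes in the list of export and its hormone, 3 were tested. ERFE and BMP6, which both act on the hormone hepcidin, were low in these cells. BMP6, a ligand that induces hepcidin, was at 2.69 ± 0.18 FPKM in Scramble, 0.783 ± 0.012 after Si-FIBP#1 and 0.957 ± 0.045 after Si-FIBP#2, with log2 differences of -1.05 and -0.91. ERFE, the hormone erythroferrone, was at 3.10 ± 0.92, 0.513 ± 0.130 and 1.11 ± 0.50 FPKM, with log2 differences of -1.42 and -0.97. Both passed the filter mainly through Scramble, in which they were high, so their values are a description of low genes. The third, USP14, is there by the make-up of the list, and no role in iron export or in the hormone is claimed for it. It was at 49.1 ± 2.4 FPKM in Scramble and differed by 0.00 and -0.03 (adjusted p = 0.97 and 0.68). With annotated transcripts only it passed after Si-FIBP#1 (0.20, adjusted p = 0.039). In iron uptake and ferrireduction, 3 of 10 were higher and 2 lower after Si-FIBP#1 and 3 higher and 1 lower after Si-FIBP#2, with CUBN among the higher in both. CUBN, the endocytic receptor cubilin, was at 0.557 ± 0.540 FPKM in Scramble, 1.67 ± 0.21 after Si-FIBP#1 and 1.68 ± 0.15 after Si-FIBP#2. It passed the filter mainly through the depleted samples, and its log2 differences of 0.83 and 0.84 are likewise a description. STEAP3, a ferrireductase and the most abundant of the list, was at 48.2 ± 2.2, 46.0 ± 1.3 and 52.0 ± 12.6 FPKM (adjusted p = 0.75 and 0.70). Without Si-FIBP#2 replicate 2 it was 0.29 higher after Si-FIBP#2 (adjusted p = 0.0023) and differed between the siRNAs by 0.36 (adjusted p = 0.0026), so this library decides the call.

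The machinery of iron-sulfur clusters, the cofactor that turns IRP1 into aconitase, held genes called in both directions. Of 21 mitochondrial genes, 7 were higher and 2 lower after Si-FIBP#1, and 5 higher and 4 lower after Si-FIBP#2. HSPA9, the mitochondrial chaperone mortalin and the most abundant of the list, fell from 196 ± 4.7 FPKM to 150.0 ± 3.2 and 138 ± 6.1, by 0.38 (adjusted p = 0.00013) and 0.50 (adjusted p = 2.6e-05). Of 9 cytosolic genes, 2 were higher and 1 lower after Si-FIBP#1, and 3 higher and 1 lower after Si-FIBP#2. NDOR1, an electron donor of this pathway, fell from 13.4 ± 1.4 FPKM to 7.59 ± 1.00 and 9.02 ± 0.70, by 0.75 (adjusted p = 0.00041) and 0.52 (adjusted p = 0.0033), the second of which was lost with annotated transcripts only (-0.60, adjusted p = 0.057). CIAO2A, a targeting factor and the most abundant of the list, was at 97.6 ± 3.3, 107 ± 9.3 and 126 ± 3.2 FPKM and rose by 0.37 after Si-FIBP#2 (adjusted p = 0.0012), with a difference of 0.12 after Si-FIBP#1 (adjusted p = 0.14). Without Si-FIBP#1 replicate 1 the latter was 0.20 (adjusted p = 0.014), so this library decides the call.

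Of 7 tested chaperones and genes of ferritin turnover, 1 was higher and 2 lower with each siRNA. PCBP2, which delivers iron to ferritin, was the most abundant at 490.0 ± 24.7, 454 ± 22 and 464 ± 6.4 FPKM and did not pass (adjusted p = 0.098 and 0.22), though under median ratio scaling it did (-0.17 and -0.18, adjusted p = 0.019 and 0.015). HERC2, a ubiquitin ligase that acts on NCOA4, rose from 24.3 ± 1.9 FPKM to 34.1 ± 2.1 and 30.5 ± 2.4, by 0.47 (adjusted p = 0.00096) and 0.32 (adjusted p = 0.0084). Of the 5 other mRNAs described with an iron-responsive element, none was higher and 2 lower after Si-FIBP#1, and 1 was higher and 2 lower after Si-FIBP#2. PFN2, an actin-binding profilin, fell from 144 ± 6.9 FPKM to 109 ± 1.4 and 126 ± 9.6, by 0.40 (adjusted p = 0.00053) and 0.20 (adjusted p = 0.022), the second of which was lost without Scramble replicate 2 (adjusted p = 0.088). CDC14A, a phosphatase, fell from 4.76 ± 0.23 FPKM to 3.34 ± 0.35 and 3.57 ± 0.46, by 0.41 (adjusted p = 0.010) and 0.34 (adjusted p = 0.024), and the second call was lost without Scramble replicate 3 (adjusted p = 0.078) or Si-FIBP#2 replicate 1 (adjusted p = 0.081) and without the filter on low values (adjusted p = 0.058).

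**Figure D5:**
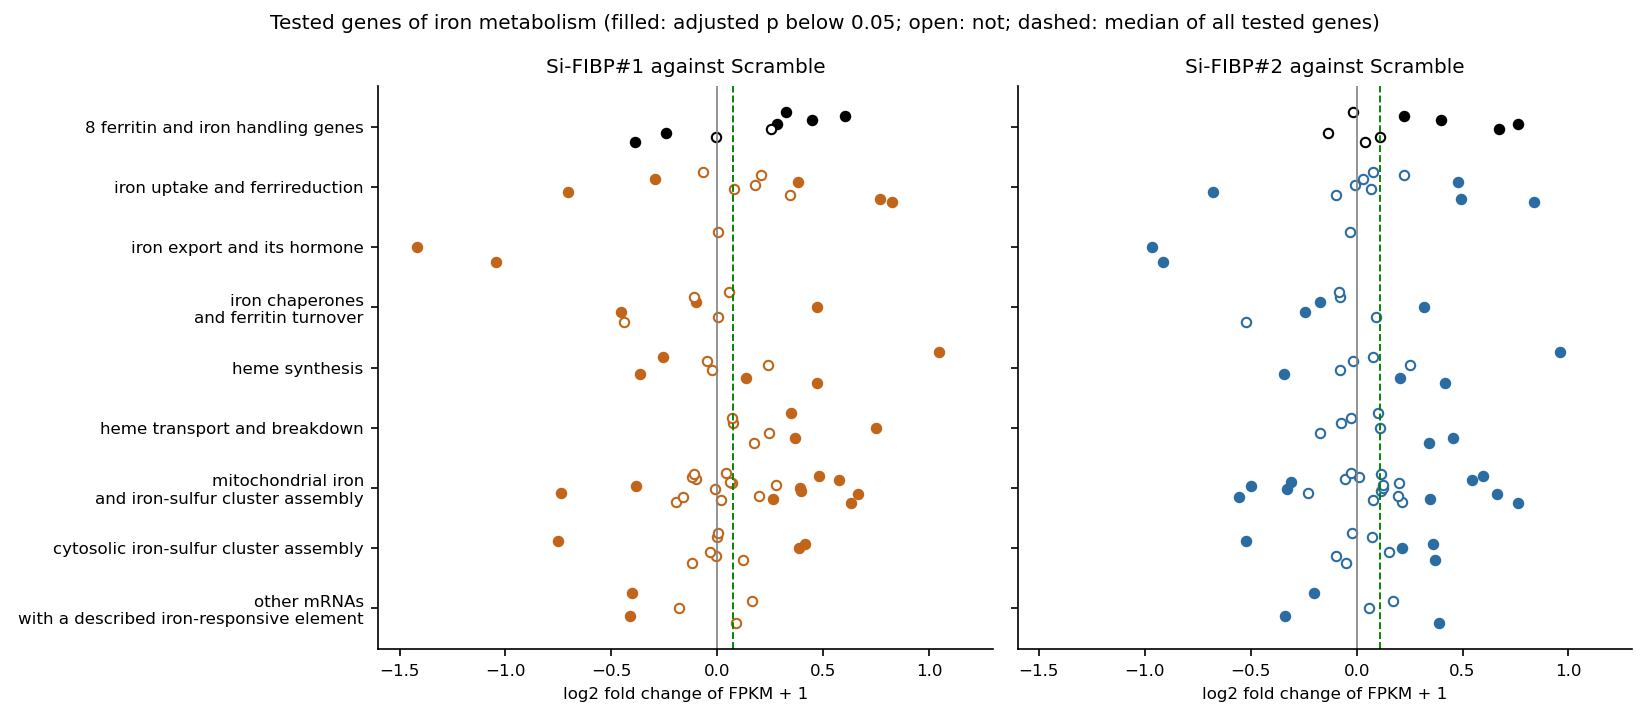
log2 fold change of FPKM + 1 (horizontal axis) of each tested gene of the 8 lists and of the 8 ferritin and iron handling genes (black), after Si-FIBP#1 on the left and Si-FIBP#2 on the right, filled where the adjusted p was below 0.05. The dashed line marks the median of all tested genes, 0.07 and 0.11, and on this scale, which understates low genes, BMP6 and ERFE lie furthest to the left and UROS furthest to the right among the list genes in both panels.

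The deposited pathway column places FTH1, FTL, TFRC, NCOA4 and SLC40A1 in the KEGG pathway of ferroptosis, a form of cell death driven by iron and lipid peroxides. This pathway was taken up after values were seen, and in the files it lists 145 genes, ferritin pseudogenes among them, of which 41 were tested, these 5 included. After Si-FIBP#1, 13 were higher and 9 lower, and after Si-FIBP#2, 15 were higher and 4 lower. This was 53.7% and 46.3% called, beside 47.7% and 48.8% of all genes. The 15 include SLC40A1, which passed the filter only through the Si-FIBP#2 samples, in which it was highest. Between the siRNAs, 10 were higher and 5 lower, or 36.6% called, beside 15.4% of all genes. FTH1 and NCOA4, called above from the same samples, are among those called. No count without the members was made, so nothing is read from these shares. The same column places FTH1, FTL and SLC40A1 in the pathway of mineral absorption, with 37 tested genes. Of these, 51.4% were called after each siRNA, beside 47.7% and 48.8% of all genes, and 24.3% between the siRNAs, beside 15.4%. SLC40A1 and FTH1 are in these counts too, so nothing is read from them.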

How the data were processed

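H1299 cells were profiled by RNA-seq, 3 samples per group, grouped by their titles. HISAT2 and StringTie are named in the submitters' processing notes, and their versions, the annotation and the genome build are not given in the sources used here. Each table deposited by the authors lists Ensembl and assembled (MSTRG) transcripts of 1 sample, with values rounded to 2 decimals that have the properties of FPKM, a unit no source states. The columns of protein, ontology and pathway annotation served for KEGG pathways only.

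FPKM were summed per gene identifier. A gene was tested when 3 or more samples reached 1 FPKM. The fit was limma 3.58.1 in R 4.3.3 (empirical Bayes with trend) on log2(FPKM + 1), all 9 samples in 1 model, with Benjamini-Hochberg adjustment over all tested genes, and single transcripts were tested likewise. Standard errors, intervals and p-values measure the spread between these samples. FPKM carry no counting interval. On simulated data with 14985 genes, Si-FIBP#1 against Scramble recovered 99% of 100 genes changed by 1.5 and 56% of 100 changed by 0.4 (log2). Si-FIBP#2 against Scramble recovered 98% and 50%. Unchanged genes called numbered 11 and 7. The changed genes were drawn from genes well above the floor, and they were far fewer than the genes called in the data. These shares therefore check the fit only and do not give the recovery in the comparisons above or for low genes. Depth was estimated from the step that 1 fragment makes in the FPKM of single-transcript genes 800 to 2000 nt long. Low values in units of this step had a mean cosine of 0.75 to 0.802 (1 where all are whole), so no counts were recovered. Tables and figures used Python 3.11.15, numpy 2.4.6, pandas 2.3.3 and matplotlib 3.10.9.

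The members and lists were chosen with earlier results of these data known. The named genes were the 8 members and FIBP, list genes called and over 2-fold in any comparison, in each list the most abundant gene and the one with the largest mean change among those called in the same direction for both siRNAs, the 3 most abundant ferritin pseudogenes, and the 2 nearest profiles of each called member. Not all genes that this rule or the search for the iron-responsive element gives are reported here. Coordinates and sequences come from GENCODE release 29 (GRCh38, Ensembl release 94), matched by Ensembl identifier. The alternatives were another pseudocount, filter or scaling, only the groups compared, a replicate block, annotated transcripts only, pseudogenes added to ferritin, and each sample left out.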

Additional observations from a re-analysis of the deposited data

Results flagged for a closer look

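For 7 genes the effects of the siRNAs differed by the direct test between them (limma, Si-FIBP#2 against Si-FIBP#1, log2 difference). These were FTH1 (0.43, adjusted p = 0.0017), IREB2 (0.48, adjusted p = 0.0048), NCOA4 (-0.38, adjusted p = 0.0015) and FBXL5 (-0.34, adjusted p = 0.012) among the ferritin and iron handling genes. Among the other named genes of iron metabolism they were HMOX1 (-0.64, adjusted p = 0.0028), UROD (0.33, adjusted p = 0.0064) and CIAO2A (0.24, adjusted p = 0.033). The difference in CIAO2A no longer passed in 9 of the alternatives tried. That in FBXL5 no longer passed with annotated transcripts only (-0.29, adjusted p = 0.094).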

How the results depend on the processing

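Of the 14 calls made for the ferritin and iron handling genes, that of SLC40A1 after Si-FIBP#2 included although it is only a description, 228 of the values under alternatives kept their direction and side of the threshold, 10 lost the call (TFRC, IREB2, NCOA4 and FBXL5, as given above) and 0 reversed. SLC40A1 could not be tested with a filter of 5 FPKM or without any 1 Si-FIBP#2 sample. The depth is an estimate and the table holds no counts, so no interval covers counting error for the low genes.

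The number of members over 2-fold was 1 with annotated transcripts only (NCOA4, Si-FIBP#1) and 1 with a pseudocount of 0.1 (SLC40A1, Si-FIBP#2). For list genes over 2-fold, a filter of 5 FPKM left 1 of 3 for Si-FIBP#1. For Si-FIBP#2 the number went from 0 to 3 with a pseudocount of 0.1, to 1 under TPM scaling, median ratio scaling or annotated transcripts only, and to 0 to 1 with samples left out. Over all genes, those called and over 2-fold went from 848, 757 and 84 in the 3 comparisons to 1498, 1411 and 172 with a pseudocount of 0.1. Leaving out 1 sample gave 4 to 6, 3 to 5 and 4 to 5 members called in the 3 comparisons. Between the siRNAs it gave 6 (without Si-FIBP#1 replicate 2) to 17 (without Si-FIBP#2 replicate 2) list genes in place of 10. Called transcripts of the members after Si-FIBP#2 were 4 without a filter and 4 to 9 with samples left out, the most without Si-FIBP#2 replicate 2. Between the siRNAs they were 1 without a filter, 0 with only the compared groups in the fit, and 0 to 2 with samples left out.

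Replicate numbers were not used to pair the samples in the main fit. Deviations of same-numbered samples correlated at -0.057 to 0.103, with 1 of 9 pairs over 0.1, and those of other numbers at -0.142 to 0.049. Some same-numbered pairs were thus above all pairs of other numbers, though all of these correlations were weak. With the replicate number as a block, 6, 4 and 4 members were called, as without it, list genes were 30, 33 and 10, and 1 transcript of the members was called between the siRNAs in place of 2.

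Signs of differences that had not passed turned as follows (log2). Under median ratio scaling Si-FIBP#2 against Scramble gave FTH1 -0.056, STEAP3 -0.019 and UROD -0.019, Si-FIBP#1 gave USP14 -0.054, and the siRNAs differed by -0.014 for CUBN and -0.0095 for PCBP2. TPM scaling gave USP14 -0.042 for Si-FIBP#1 and 0.010 between the siRNAs. With annotated transcripts only, Si-FIBP#2 gave FBXL5 0.43 and USP14 0.14. With samples left out, Si-FIBP#1 gave FTL -0.022 to 0.017 and USP14 -0.028 to 0.040. Si-FIBP#2 gave FBXL5 -0.055 to 0.048, HMOX1 -0.0026 to 0.19, STEAP3 -0.033 to 0.29 and USP14 -0.062 to 0.0062. Between the siRNAs CDC14A ranged from -0.003 to 0.14, CUBN from -0.035 to 0.072, PCBP2 from -0.0097 to 0.055 and FIBP from -0.10 to 0.26. The cause was not tested for any of these.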
